A study of Mus musculus with 2 samples.

Results

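Low-UMI collagen barcodes are the shallow entries in these tumour libraries that carried fibrillar collagen RNA and little RNA of complement C1q, a product of macrophages. They were selected on measured values: a cell barcode had to show at least 300 genes, at least 500 and under 10000 UMIs (unique molecular identifiers, each standing for 1 captured RNA molecule) and at most 20% mitochondrial UMIs. Its summed Col1a1, Col1a2 and Col3a1 had to reach 4 UMIs and 0.2% of all its UMIs, and its summed C1qa, C1qb and C1qc had to stay under 0.2%. The rule found 62 members among 20602 cells that passed the same filters on genes, mitochondrial RNA and lowest UMIs, out of 21532 barcodes in all. The study took fibrosarcomas grown under the skin of wild-type C57BL/6 mice, labelled WT C57BL/6, and set an injection of the animals' own erythrocytes against saline. Each group had 1 droplet-based 3′ library, and the animals' age, their number and the tumour line were not stated in the labels. The library titled Control carries the treatment label "Erythrocyte injected", and the library titled Blood carries "PBS injected". Libraries are named by title below, and because titles and treatments clash, differences between them are given without saying which tumour received erythrocytes. No test could be run on single libraries, so intervals are exact 95% intervals that cover counting error only.

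In the library titled Control there were 9475 barcodes with 115272096 UMIs, of which 8985 barcodes passed the filters with a median of 9385 UMIs. In the library titled Blood there were 12057 with 115066023 UMIs, of which 11617 passed with a median of 6690 UMIs. Members had medians of 1559.5 and 1229.5 UMIs, and 48753 and 59860 UMIs in all.

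Fibrillar collagens are made by fibroblasts and other mesenchymal cells, and fibrosarcoma cells, being of mesenchymal origin, can make them too. Procollagen chains are hydroxylated and folded in the endoplasmic reticulum with the chaperone Serpinh1, secreted, trimmed, and bundled with proteoglycans such as biglycan (Bgn) and with the collagen-binding protein Sparc. In a droplet library, a barcode marks the RNA caught in 1 droplet, so a collagen signal in a barcode of few UMIs can belong to a small cell, a cell that lost RNA, a fragment of a cell, or RNA that came from elsewhere.

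Sparc RNA was found in 60 of 62 members and Bgn RNA in 55, but most of the members' barcodes also stood in the other library with far more UMIs. Of the 62 members 26 were in the library titled Control and 36 in the library titled Blood. In 42 of them, 16 of 26 and 26 of 36, the same barcode was found in the other library, and in every one of these 42 the member was the shallower entry. The deeper entry held 44.4 to 62.1 times as many UMIs (median 51.1), so that a member held 1.61% to 2.25% of the UMIs of its counterpart (median 1.96%). Of the 42 counterparts 39 passed the collagen and C1q limits themselves with at least 10000 UMIs. Collagen, Sparc and Bgn RNA was present as a label of low-UMI stromal cells asks, but since most of these barcodes had a deep counterpart the entries are called by their rule here and not as cells of a type. The remaining 20 members, 10 in each library, had a barcode found in 1 library only.

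Barcodes from both ends of the collagen range are shown because the identical letters tie an entry to its counterpart. Each has 16 bases, all in capitals since every base is the same in both libraries.
Blood 2, 41 of 640 UMIs on the 3 collagens (6.41%), counterpart 2181 of 39525 (5.52%): CTGTATTGTTAGTTCG
Blood 23, 56 of 1352 UMIs on the 3 collagens (4.14%), counterpart 3431 of 69370 (4.95%): TCAGCCTCACTGTGAT
Control 10, 29 of 1130 UMIs on the 3 collagens (2.57%), counterpart 1264 of 56647 (2.23%): TCCTTTCCACACTTAG
Blood 26, 21 of 1690 UMIs on the 3 collagens (1.24%), counterpart 1048 of 85164 (1.23%): TGCATGAGTGTAAACA
Control 15, 5 of 1633 UMIs on the 3 collagens (0.306%), counterpart 141 of 81163 (0.174%): GTTGCGGGTCGCCTAG
Blood 16, 4 of 1190 UMIs on the 3 collagens (0.336%), counterpart 128 of 73886 (0.173%): CTCAATTGTCTTTCAT
Control 24, 8 of 3254 UMIs on the 3 collagens (0.246%), counterpart 562 of 159276 (0.353%): GAACGTTGTTACGTAC
The 1st of these, Blood 2, had the highest collagen share of all members with a shared barcode, and Control 24 had the lowest and also the most UMIs. In Blood 16 and Control 15 the counterpart lay under the 0.2% collagen limit that the member passed. Over the 42 entries the collagen share of a member rose and fell with that of its counterpart, with a Pearson correlation of 0.952, and of 0.896 within the 16 of the library titled Control and 0.964 within the 26 of the library titled Blood. These correlations describe entries that were picked for carrying collagen, and they have no p-value.

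**Figure D1:**
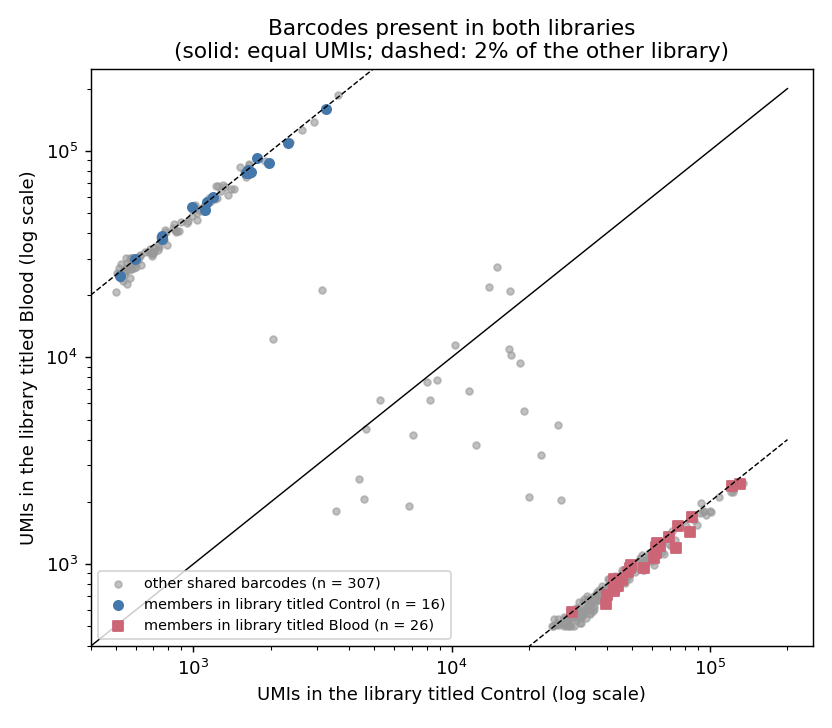
UMIs of the 349 barcodes found in both libraries, with the library titled Control on the x axis and the library titled Blood on the y axis, both on log scales. The 42 members (coloured) lie along the dashed lines at 2% of the other library's UMIs, with most of the other shared barcodes (grey), and no member lies near the line of equal UMIs.

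**Figure D2:**
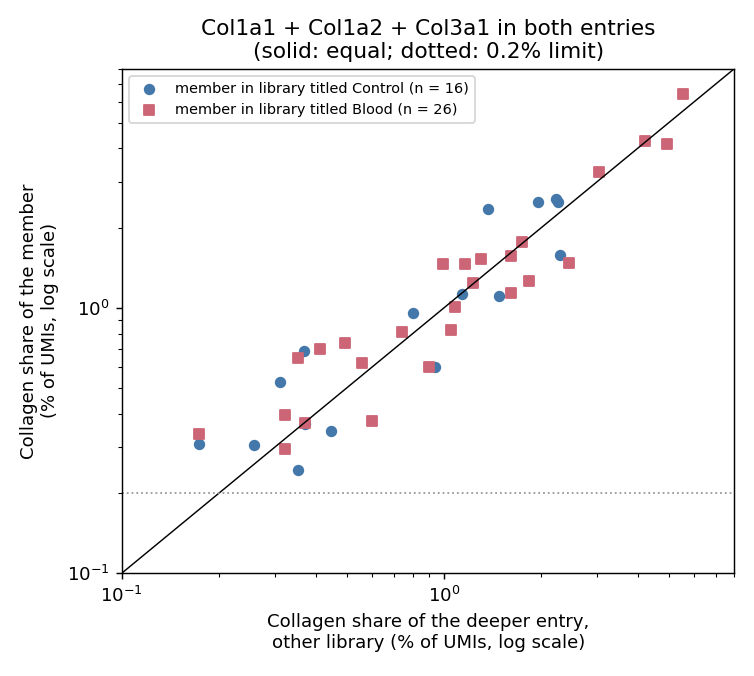
Share of UMIs on Col1a1, Col1a2 and Col3a1 in each of the 42 members with a shared barcode (y axis) against the deeper entry in the other library (x axis), both in percent on log scales. Points of both libraries follow the line of equal shares, and 2 counterparts fall left of 0.2%.

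In all, 349 barcodes stood in both libraries, 3.68% of those titled Control and 2.89% of those titled Blood. The deeper entry was in the library titled Control for 230 and in the library titled Blood for 119. The shallower entry held a median of 1.95% of the deeper one's UMIs, and more than 3% in 26 of the 349. Sharing followed depth: of collagen cells with at least 30000 UMIs, 41 of 41 titled Control and 23 of 23 titled Blood had their barcode in the other library. Of collagen cells with at least 10000 and under 25000 UMIs, 0 of 10 and 1 of 3 did, where 0 of 10 allows a share of up to 30%. No shallower entry held under 500 UMIs. An entry at 2% of a cell under 25000 UMIs would lie below that depth. Whether shallower cells also had such entries could therefore not be seen. Over all filtered cells with at least 30000 UMIs the shares were 32.1% (28.3% to 36.2%) and 20.4% (16.6% to 24.7%), below those of collagen cells over the same limit. That range has no upper end, and depth within it was not matched.

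The genes of a shared entry pointed to the same counterpart as its barcode did. Each member's UMIs were scored by their likelihood under the gene proportions of every cell with at least 10000 UMIs in the other library, 4180 or 4277 candidates, without using the barcode. The cell with the same barcode ranked 1st for 42 of 42 members, and it also scored above every such cell of the member's own library for 42 of 42. A median of 98.0% of a member's UMIs fell on genes detected in its counterpart. Over the other collagen cells of that library the median was 91.9%, and 38 of 42 members lay higher on their counterpart than on any of those cells. This share rises with the number of genes detected in the compared cell, and cells were not matched for depth. Counterparts had a median of 60158 UMIs, and all deep collagen cells of both libraries one of 44801. How a barcode came to be in both libraries was not tested, since counts and not reads were used here.

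Summed over entries, the levels lay nearer to the counterparts than to the deep collagen cells of the library the entry was counted in. A difference was counted from 1.5-fold, on the log2 ratio of CPM (a gene's UMIs scaled to a common total) plus 5. Of 79 genes with at least 50 UMIs in the 16 entries titled Control, 0 differed by 1.5-fold from their counterparts (0%), against 3 (3.8%) when set beside the collagen cells of at least 10000 UMIs in their own library. In the 26 entries titled Blood, of 105 genes 0 (0%) and 4 (3.81%) did so. The median absolute log2 difference was 0.13 and 0.12 against counterparts, and 0.22 and 0.16 against own-library cells. The farthest gene from the counterparts was Eef1a1, a translation elongation factor, at 0.50 in entries titled Control and Tmsb10 at 0.49 in entries titled Blood. Against own-library cells the farthest were mt-Cytb at 0.77 and Sparc at 0.99. These shares refer to well-detected genes, and a lower count of UMIs in the entries makes small differences undetectable. Genes under 50 UMIs were not counted, and of these Lyz2 and Apoe stood above the counterparts by more than 1.5-fold, as given below.

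Genes that differed most between the deep collagen cells of the libraries turned around in the shared entries. The 8 with the largest difference in either direction, among genes with at least 50 UMIs in the 42 entries and without mitochondrial, ribosomal protein and predicted genes, were taken after their values were seen. Ccl2, a chemokine that attracts monocytes, stood at 1199.95 CPM in deep cells titled Control and 712 CPM in those titled Blood. In the entries the order was the other way round, with 742 CPM (432 to 1188, 17 UMIs) titled Control and 1548 CPM (1133 to 2065, 46 UMIs) titled Blood. Their counterparts, each in the opposite library, stood at 787 and 1483 CPM. Sparc was at 3168 and 2284 CPM in deep cells, and at 2837 CPM (2189 to 3615) and 4542 CPM (3808 to 5376) in entries. All 8 genes were lower in deep cells titled Blood, with log2 ratios from -0.75 to -0.45, and all 8 were higher in entries titled Blood, from 0.19 to 1.14. Crip1, a LIM domain protein, had the largest turn (-0.74 and 1.14), and H2-K1, a class I antigen-presenting chain, the smallest (-0.48 and 0.19). The intervals of both libraries' entries overlap for every one of these genes but Crip1 and Sparc. In the 20 single-library members Crip1 (1.27) and Fos, a subunit of AP-1 (0.34), were also higher in the library titled Blood, and the other 6 genes were lower there. For Crip1 and Fos the opposite order to deep cells was thus not limited to shared entries. Single members weighed on these values. Of the UMIs of the 20, Control 26 held 63 of 102 of Jun and 39 of 124 of Fos, and Blood 35 held 55 of Fos. Control 26 also held 21 UMIs of Ccl2.

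**Figure D3:**
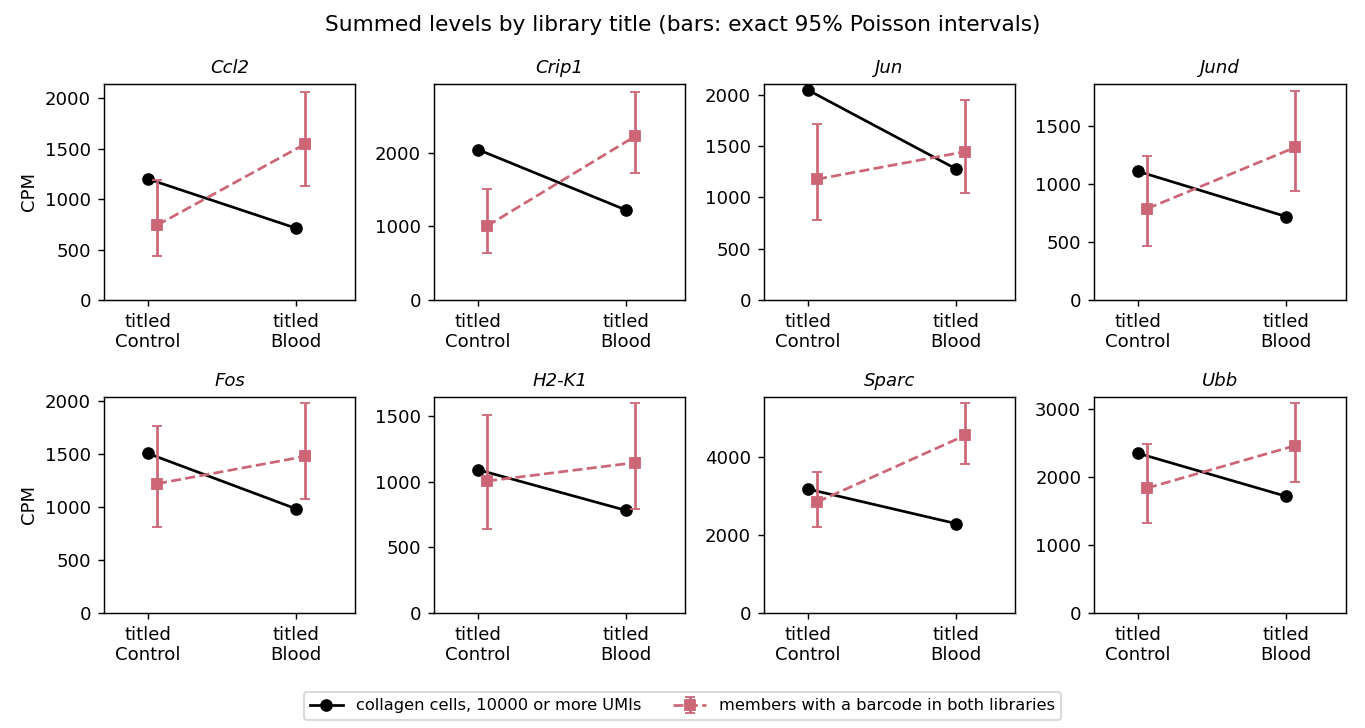
Summed levels in CPM (linear axes from 0) of the 8 genes that differed most between deep collagen cells, by library title. Black points are collagen cells of at least 10000 UMIs, and red squares with exact 95% Poisson intervals are the 42 members with a shared barcode. Every black line falls from left to right and every red line rises.

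Mmp3, a secreted matrix-degrading protease named after its values were seen, was at 146 CPM in deep collagen cells titled Control and 6.24 CPM in those titled Blood. All 26 members titled Control together had 0 Mmp3 UMIs, which allows up to 61.5 CPM. The 16 shared entries among them held 22915 of the 48753 UMIs, so the limit for those alone is higher. The shared entries titled Blood had 7 Mmp3 UMIs, or 236 CPM. These few UMIs came from 2 entries.

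Summed over both libraries, collagen I and III, Sparc, decorin and osteopontin RNA stood higher in entries with a shared barcode than in the other 20, and the intervals of Bgn and Serpinh1 overlapped. Within libraries, the intervals of Col1a1 and Col3a1 were apart in both, those of Col1a2, Sparc and Spp1 only in the library titled Blood, and those of Dcn only in the library titled Control. Since 3 collagens chose the members, their levels are a description. Col1a1, Col1a2 and Col3a1, the chains of collagens I and III, were at 4028 CPM (3504 to 4608), 3173 CPM (2709.8 to 3692) and 4085 CPM (3557 to 4669) in the 42 shared entries. In the 20 single-library members they were at 1697 CPM (1373 to 2075), 2090.1 CPM (1729 to 2505) and 1751 CPM (1421 to 2134). Sparc, not used by the rule, was at 3799.8 CPM (3291 to 4364) and 2019 CPM (1664 to 2427). In the library titled Control it was at 2837 CPM (2189 to 3615) in shared entries and 2361 CPM (1806 to 3033) in the others, and in the library titled Blood at 4542 CPM (3808 to 5376) and 1725 CPM (1289 to 2262). Bgn was at 1729 CPM (1392 to 2123) and 1786 CPM (1454 to 2173). The 20 were not alike, as set out below. Of them, 15 had under 0.2% of UMIs on Malat1, a nuclear RNA. In these Sparc was at 2568 CPM (2045 to 3183) and Bgn at 2444 CPM (1935 to 3046). In the 5 others, which held 23654 of the 55978 UMIs, they were at 1268 CPM (856 to 1811) and 888 CPM (550 to 1357). The 3 collagens were lower than in shared entries in both parts, though the Col1a2 interval of the 5 (1862 to 3170 CPM) overlapped that of shared entries. The minimum of 4 collagen UMIs asks a larger share of a shallower barcode. Shared entries had a median of 1129 UMIs and the 20 a median of 1991.5, and the part of the rule in these gaps was not tested. Low-UMI cells under the collagen limits held 13.5 CPM of Sparc and 12.2 CPM of Bgn. With every cell thinned to 500 UMIs, Sparc had a UMI in 75.0% and 76.9% of shared entries (titled Control and titled Blood), 60.0% and 60.0% of single-library members, and 1.4% and 0.4% of a draw of 500 low-UMI cells under the collagen limits. Unthinned, these shares were 93.8% and 100%, 100% and 90.0%, and 4% and 1.2%, at median depths of 1392 and 1028, 1872 and 1991.5, and 5062.5 and 3487.5 UMIs.

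By role, RNA of collagen processing genes was present in both sets. The list of fibroblast markers, 21 genes of which 21 were detected, took 2.24% (2.12 to 2.38) of the UMIs in shared entries and 1.29% (1.19 to 1.38) in single-library members, beside 2.0% and 1.72% in deep collagen cells titled Control and Blood. That list holds the 3 collagens of the rule, and its other 18 genes, Sparc among them, took 1.12% (1.03 to 1.21) and 0.732% (0.663 to 0.807). Collagen processing genes, 18 of 19 detected, took 0.699% (0.630 to 0.774) and 0.464% (0.410 to 0.524). Sparc is on this list too, and gave 200 of its 368 UMIs in shared entries and 113 of 260 in single-library members. Of the other genes on the list, the collagen chaperone Serpinh1 was at 817 CPM (591 to 1100.4) and 804 CPM (586 to 1076). Microfibrillar collagen VI was represented by Col6a1 at 949.9 CPM (705 to 1252) and 804 CPM (586 to 1076). Leucine-rich proteoglycans, 7 of 8 detected, took 0.277% (0.234 to 0.326) and 0.218% (0.181 to 0.260), and decorin (Dcn) was at 703 CPM (495 to 969) and 250.1 CPM (137 to 419.6). Spp1, the secreted glycoprotein osteopontin, was at 3306 CPM (2833 to 3835) and 1572 CPM (1261 to 1937), and the lysosomal protease gene Ctsl at 1729 CPM (1392 to 2123) and 822 CPM (602 to 1096). The contractile list, from actins to tropomyosins, took like shares in both sets, 0.365% (0.315 to 0.420) and 0.359% (0.311 to 0.412).

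For genes that signal to immune cells, the intervals of the sets were apart in the library titled Blood. They overlapped in the library titled Control, where 1 member held most of the list's single-library UMIs. The inflammatory fibroblast list, 15 of 21 detected, took 0.342% (0.294 to 0.396) of UMIs in shared entries and 0.154% (0.123 to 0.190) in single-library members. In the library titled Control these shares were 0.192% (0.140 to 0.258) and 0.217% (0.164 to 0.281), with overlapping intervals, and in the library titled Blood 0.458% (0.384 to 0.541) and 0.0995% (0.0672 to 0.142). Of the 56 UMIs of the list in single-library members titled Control, 37 were in Control 26, which held 21 UMIs of Ccl2. Only 2 of those 10 members had 3 or more UMIs of the list. Ccl7, a monocyte chemokine like Ccl2, was at 855 CPM (624 to 1144) and 161 CPM (73.5 to 305), and its intervals overlapped in the library titled Control. Mesenchymal genes that other cells also express were high in both sets: S100a6, a calcium-binding protein, was at 13584 CPM (12606 to 14617) and 10844 CPM (9998 to 11742), the intermediate filament vimentin (Vim) at 4997 CPM (4411 to 5638) and 4091 CPM (3578 to 4656), and the galectin Lgals1 at 9594 CPM (8776 to 10469) and 6235 CPM (5598 to 6924). In the 15 single-library members with under 0.2% Malat1, S100a6, Vim and Lgals1 were at 15252 CPM (13935 to 16659.5), 4702 CPM (3985 to 5512) and 9250 CPM (8231 to 10360). Each of these intervals overlaps that of shared entries. In the 5 others these genes were at 4819, 3255 and 2114 CPM. Cell cycle genes, 24 of 24 detected, took 0.416% (0.363 to 0.475) of UMIs in shared entries and 0.343% (0.296 to 0.395) in all 20 single-library members.

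**Figure D4:**
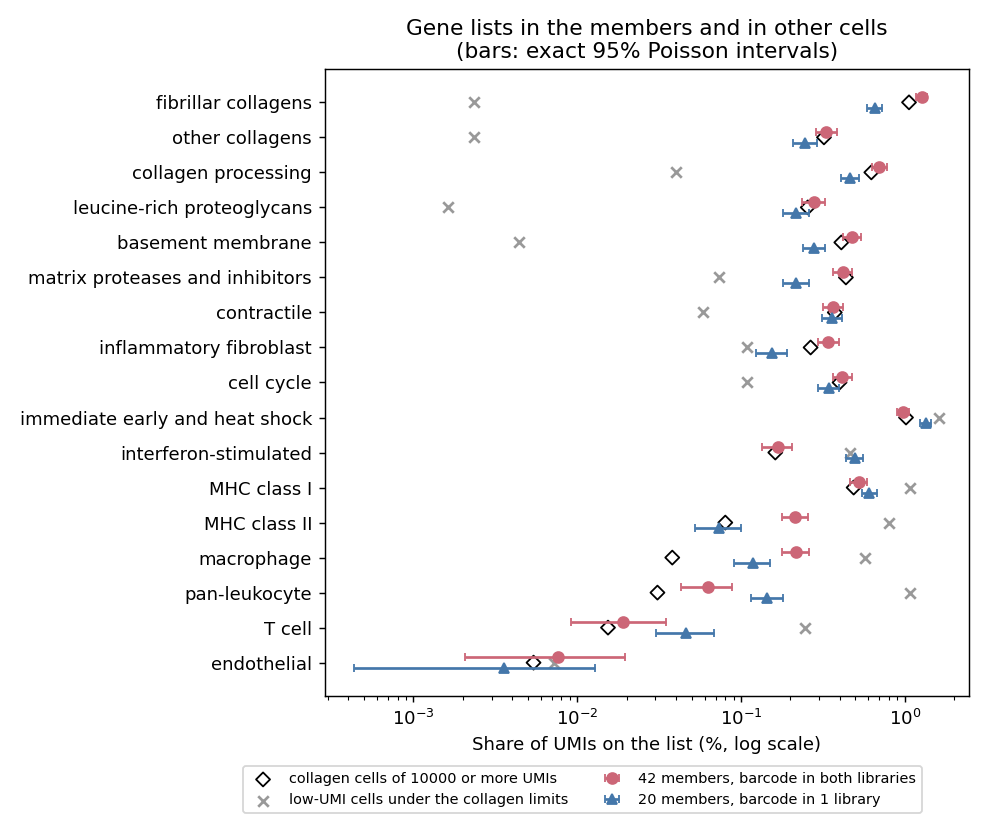
Share of UMIs (%, log scale) on 17 gene lists in the 42 members with a shared barcode (circles) and the 20 with a barcode in 1 library (triangles), with exact 95% Poisson intervals. Diamonds and crosses are the means of the 2 libraries for deep collagen cells and for low-UMI cells under the collagen limits. The fibrillar collagen list holds the 3 genes of the rule, and Sparc is on both the collagen processing and the basement membrane list. For matrix lists the circles lie near the diamonds and the triangles at or left of them, and for the macrophage and MHC class II lists the circles lie right of the diamonds.

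RNA of other lineages was low but not absent. The macrophage list, 8 of 9 genes detected, took 0.217% (0.179 to 0.260) of UMIs in shared entries, 0.118% (0.0912 to 0.150) in single-library members, and 0.0382% and 0.0379% in deep collagen cells. In shared entries Lyz2, the lysozyme of myeloid cells, was at 567 and 1043 CPM, where their counterparts had 100.3 and 183 CPM. The apolipoprotein gene Apoe was at 611 and 1279 CPM, with 174 and 366 CPM in the counterparts. Both genes thus stood above the counterparts. Low-UMI cells under the collagen limits held 3771 and 2792 CPM of Lyz2, and the part of free RNA in these values was not tested. Of the 7 pan-leukocyte genes all were detected, at 33 UMIs in shared entries and 81 in single-library members. Ptprc, the leukocyte surface antigen CD45, had 0 UMIs in shared entries, which allows up to 57.0 CPM, and 9 UMIs in 4 of the 20 others. Lists for neutrophils, mast cells, erythroid cells, adipocytes, Schwann cells and skeletal muscle had 0 UMIs over all members, which allows up to 0.00276% of their 108613 UMIs. The pericyte and smooth muscle list had 1 UMI, endothelial genes 6 and epithelial genes 12.

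The 20 members with a barcode in 1 library split by nuclear RNA. Malat1, a long noncoding RNA kept in the nucleus, made up under 0.2% of UMIs in 15 of these 20 members, 75.0% (50.9% to 91.3%), 8 titled Control and 7 titled Blood. The same held for 1 of the 42 shared entries, 1 of the 82 deep collagen cells and 472 of 12083 other low-UMI cells (3.91%, 3.57% to 4.27%). The 0.2% limit was set after the values were seen. Among the 20, the highest value below it was 0.177% and the lowest above 0.642%. Together the 15 held 11 Malat1 UMIs of 32324, or 340.3 CPM (169.9 to 609), against 15199 CPM in shared entries and 15759 CPM in deep collagen cells. Neat1, another nuclear noncoding RNA, had 1 UMI in the 15, or 30.9 CPM (0.783 to 172), against 646 CPM (447 to 903) in shared entries.

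Mitochondrial RNA was also low in most of these 15. In 11 of them, 6 titled Control and 5 titled Blood, mitochondrial transcripts were at 0% to 0.423% of UMIs. No shared entry was under 1%, where 0 of 42 allows a share of up to 7.14%, and none of the 82 deep collagen cells was, where 0 of 82 allows up to 3.66%. The 1% limit was set after the values were seen. Of the other low-UMI cells, 185 of 12083 (1.53%, 1.32% to 1.77%) were low in both Malat1 and mitochondrial RNA. The 11 had 564 to 5197 UMIs (median 1526), and ribosomal protein genes made up 31.0% of their UMIs, against 22.6% in shared entries. Messenger RNA of mesenchymal genes was present: S100a6 was at 14628 CPM (13032 to 16365), Lgals1 at 9544 CPM (8264 to 10966) and Bgn at 1870.4 CPM (1330.05 to 2557) in the 11. Klf6, an early-response transcription factor, and Cyba, a subunit of the NADPH oxidase, were chosen after their values were seen and had 0 UMIs in the 11, so that at most 144 CPM is allowed by the depth, against 418 CPM (262 to 633) and 551 CPM (369 to 791) in shared entries. Clustering of the members alone at a resolution of 0.5 put these 11 in 1 of 2 clusters and all 42 shared entries in the other. At a resolution of 1 the 11 shared 1 of 5 clusters with 1 shared entry, and genes low in the 11 took part in that clustering. The other 4 of the 15 had mitochondrial shares of 1.80% to 19.4%. What these 11 barcodes held, other than by their RNA, was not tested. The predicted gene Gm42418 was at 18005 CPM (16572 to 19529) in the 15, 29805 CPM (27645 to 32088) in the 5 other single-library members, 5434 CPM (4822 to 6101) in shared entries and 11883 CPM in low-UMI cells under the collagen limits.

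**Figure D5:**
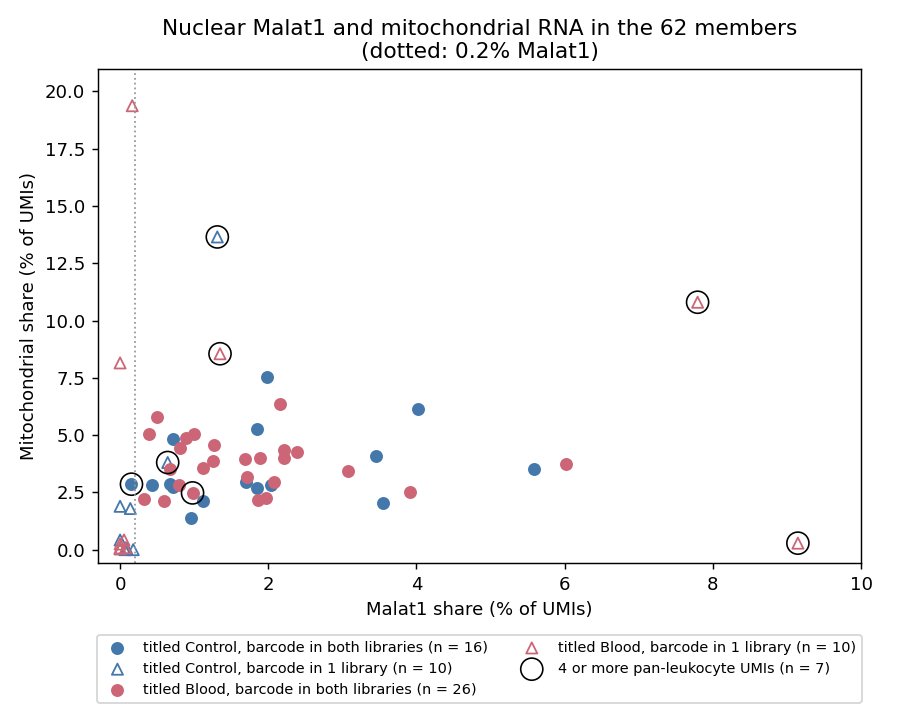
Malat1 share (x axis) and mitochondrial share (y axis), both in percent of UMIs, of each of the 62 members. Triangles (barcode in 1 library) gather left of the 0.2% line, 11 of them near 0 on both axes, and the 5 triangles to the right are all ringed for 4 or more pan-leukocyte UMIs. Shared entries with 5 and 7 such UMIs are ringed too. At the limit of 3 used elsewhere, Control 20, left of the line, would also be ringed.

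The 5 single-library members with at least 0.2% Malat1 all carried leukocyte RNA. They held 4 to 28 pan-leukocyte UMIs each, whereas the 15 held 0 to 3, at median depths of 5280 and 1832 UMIs. Summed, this was 0.296% and 0.0340% of UMIs. By share of UMIs the 2 sets overlapped. Control 26 had 6 of 7011 and Blood 33 had 4 of 3485. Control 7 and Control 20, both of the 15, had higher shares, at 2 of 952 and 3 of 2218. Among shared entries 3 of 42 had 3 or more. In Control 25, with 5915 UMIs, 67 UMIs of fibroblast markers stood beside 22 of T cell markers and 16 of the T and NK cell chemokine Ccl5, and it was the only member called a doublet. Blood 35 held 69 UMIs of the neutrophil chemokine Cxcl2, 33 of Rgs1 and 24 of arginase 1 (Arg1), with 21 pan-leukocyte UMIs and 0 of Sparc and Bgn. In Blood 29 there were 13 UMIs of interleukin 1 beta (Il1b) and 11 pan-leukocyte UMIs. Blood 33 had 37 Col1a2 and 23 Col1a1 UMIs, the most collagen of any member, with 16 UMIs of macrophage markers. Control 26 had the most UMIs of all members, 7011, and 123 of them were Cxcl10, an interferon-induced chemokine. Interferon-stimulated genes, Cxcl10 among them, had 201 UMIs in it, and it also held 75 of Egr1 and 63 of Jun, with a mitochondrial share of 13.65%. The genes given for single members were chosen after their values were seen, and cells holding RNA of 2 types were not told apart from droplets with 2 cells.

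The share of members was close between the libraries. They were 0.289% (0.189% to 0.424%) of filtered cells titled Control and 0.310% (0.217% to 0.429%) of those titled Blood, a ratio of 1.07 (0.629 to 1.85). Without the shallower entries of shared barcodes, chosen after seeing the data, 10 of 8869 cells (0.113%, 0.0541% to 0.207%) and 10 of 11387 (0.0878%, 0.0421% to 0.161%) were left. Deep collagen cells numbered 54 titled Control and 28 titled Blood, and their part in the other library's share of members was not tested.

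Summed over all members, few genes differed by 1.5-fold between the libraries. Of 151 genes with at least 100 UMIs, 9 were at least 1.5-fold higher in the library titled Blood (5.96%) and 9 at least 1.5-fold lower (5.96%), with a median log2 ratio of 0.053 over all 151. In shared entries alone, of 94 such genes 2 were higher and 2 lower. Col3a1 was at 108 and 205 UMIs, or 2215 and 3425 CPM, a ratio of 1.55 (1.22 to 1.97). Of 3 measured fibrillar collagens 1 passed 1.5-fold, and the median log2 ratio was 0.52. The rule used all 3. This median was 0.083 by the mean of each cell's CPM, 0.058 with C1q under 0.1%, -0.066 with collagen limits of 8 UMIs and 0.4%, and -0.11 without members of 3 or more pan-leukocyte UMIs. Under the last 2 settings the log2 ratio of Col3a1 was 0.16 and 0.23, under 1.5-fold. In deep collagen cells Col3a1 had the opposite order, 3964 CPM titled Control and 3169 CPM titled Blood. Crip1 was at 41 and 117 UMIs, a ratio of 2.32 (1.62 to 3.40), and also had the opposite order in deep cells, at 2039.5 and 1219 CPM. Ahnak, a large scaffold protein, was at 37 and 102 UMIs, a ratio of 2.25 (1.53 to 3.37), and Igfbp4, which binds insulin-like growth factors, at 36 and 83 UMIs, a ratio of 1.88 (1.26 to 2.86). In shared entries alone the log2 ratio of Ahnak was 0.13 and that of Igfbp4 -0.031, and in single-library members 1.54 and 2.09. Malat1 was at 498 and 1126 UMIs, of which 483 of the latter were in Blood 35, and its log2 ratio of 0.88 was -0.10 in shared entries.

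Among the lowest genes, Cxcl10, Egr1 and Jun had most of their UMIs titled Control in 1 member. Cxcl10 was at 140 and 13 UMIs, a ratio of 0.0756 (0.0393 to 0.134), with 123 of the 140 in Control 26. Of 5 measured immediate early and heat shock genes 3 were at least 1.5-fold lower, with a median log2 ratio of -0.94, and without Control 26 the median was 0.15. Egr1, an early growth response factor, was at 96 and 52 UMIs, a ratio of 0.441 (0.309 to 0.625), and Jun, a subunit of AP-1, at 105 and 67 UMIs, a ratio of 0.520 (0.377 to 0.713). Without Control 26 the log2 ratios of Egr1 and Jun turned to 0.78 and 0.15, whereas those of Hsp90aa1 (-0.81), Eif5a (-0.96), Pfn1 (-0.67) and S100a10 (-0.84) stayed past 1.5-fold. That of Cxcl10 moved to -0.89, on 17 UMIs titled Control and 13 titled Blood, too few for the minimum of 100. Without Control 26 the number of lower genes was 3 in place of 9, of 141 genes in place of 151 that still reached 100 UMIs. Genes that fell under that minimum left the count. Of 4 measured genes of the mesenchymal identity list, S100a6, Lgals1, Vim and S100a4, 0 passed 1.5-fold in either direction, with a median of -0.049. Of 3 measured MHC class I genes 0 did, with a median of 0.26, and of 8 mitochondrial genes 0 did, with a median of -0.009 that became 0.65 without Control 26. In the single-library members alone, 8 of 88 genes (9.09%) titled Control and 13 of 104 (12.5%) titled Blood lay 1.5-fold from their own library's deep collagen cells. The farthest were Cxcl10 at 3.81 and Cxcl2 at 4.14 on the log2 scale, with 123 of the Cxcl10 UMIs in Control 26 and 69 of the Cxcl2 UMIs in Blood 35.

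At the edges of the rule, 3 and 2 members had exactly 4 collagen UMIs. Just outside, 4 and 12 barcodes had 3 collagen UMIs and at least 0.2%, of which 4 and 11 were shared with the other library. A further 8 and 8 had 4 or more collagen UMIs but under 0.2%. The deepest members had 7011 and 5852 UMIs and the shallowest collagen cells of at least 10000 UMIs had 11030 and 22092. Of low-UMI cells under the collagen limits 92.4% and 95.5% had 0 collagen UMIs.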

How the data were processed

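Cells of 2 tumour libraries, 1 per group, were profiled by droplet 3′ RNA sequencing. The deposited values are raw UMI counts per gene and barcode for 31053 genes, and per the submitters' processing notes the authors used Cell Ranger (version 3.1.0) and the mouse build mm10. Filters on genes, UMIs and mitochondrial share and the collagen and C1q limits were applied as stated in the text. Counts were summed over members, divided by their total and scaled as CPM, with exact Poisson intervals, exact Clopper-Pearson intervals for shares and conditional binomial intervals for ratios. Genes with at least 100 UMIs over all members were compared by the log2 ratio of CPM plus 5. With 1 library per group there is no test and no p-value. PCR duplicates are removed by UMIs, and intervals and limits of 3 counts cover counting error only.

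Barcodes were matched letter by letter between libraries. For the likelihood match, each candidate's gene proportions had a weight of 90%. The other 10% was the pool of cells with at least 10000 UMIs from both libraries. Members were clustered with scanpy 1.11.5 and leidenalg 0.10.2 (igraph 0.11.9), and doublets were called with Scrublet, which marked 1.80% and 2.38% of filtered cells. Doublets were kept. To compare depths, cells were thinned to 500 UMIs, with 500 low-UMI cells drawn per library. The genes named were the 12 highest and 12 lowest between libraries, the 10 highest and 10 lowest against deep collagen cells, up to 4 of each list, and Col1a1, Col1a2, Col3a1, Sparc, Bgn, Dcn and Ptprc. A gene of the lowest 12 is not reported here. Other named genes were chosen after their values were seen, and so were the comparisons of shared barcodes and the Malat1 and mitochondrial splits. The members and gene lists were chosen with earlier results of these data known. The calculations were tested on simulated data.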

Additional observations from a re-analysis of the deposited data

How the results depend on the processing

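No paired analysis was possible because each group has 1 library and the labels carry no replicate numbers, and for the same reason no replicate could be left out. The ratio of the members' shares ranged from 0.779 (without the shallower entries of shared barcodes) to 1.48 (collagen limits of 8 UMIs and 0.4%), on both sides of 1 and within its interval under each setting tried. Of 622 gene and list values under alternatives, 531 stayed within the counting interval, 71 left it and 20 that had passed 1.5-fold changed sign. Another 28 values under 1.5-fold also changed sign, 48 in all. Of the 531, the minimums of 1, 50 and 200 UMIs gave 32, 34 and 31. These minimums cannot change a gene's own ratio. Pseudocounts of 1 and 10 gave 34 each and change it little, so the 531 overstate how stable the values were. The 9 genes higher in the library titled Blood became 3607 with genes of 1 UMI or more, 28 with 50 or more, 3 with 200 or more, 14 with collagen limits of 2 UMIs and 0.1%, and 2 in entries of shared barcodes. The 9 lower genes became 3214, 26 and 0 at those 3 minimums, 5 with a lowest depth of 1000 UMIs, 4 with members under 5000 UMIs, 5 with C1q under 0.1%, 2 at 10% mitochondrial RNA or less, 3 with collagen limits of 8 UMIs and 0.4%, 2 in shared entries, 2 without members of 3 or more pan-leukocyte UMIs, and 3 without Control 26. The minimums change the number of genes compared, as does leaving out Control 26 (141 in place of 151), and otherwise the cause was not tested. The log2 ratio of Egr1 turned to 0.53 with members under 5000 UMIs, 0.88 at 10% mitochondrial RNA or less, 1.21 at the higher collagen limits, 0.47 in shared entries, 0.18 without the leukocyte-bearing members and 0.78 without Control 26. That of Jun turned to values from 0.10 to 0.30 (0.29, 0.20, 0.14 and 0.15 among them). Malat1 turned to -0.61 at the higher collagen limits, -0.10 in shared entries and -0.47 without the leukocyte-bearing members, where Hspa5 turned to -0.43. Igfbp4 was at -0.031 in shared entries. The median of immediate early and heat shock genes turned to 0.10 at the lower collagen limits, 0.10 by the mean of each cell's CPM and 0.15 without Control 26. Settings on shared barcodes and Control 26 were chosen after seeing the data. With 26 and 36 members, counting intervals are wide for genes of few UMIs.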
